A study of Danio rerio with 72 samples.

Results

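Fgf receptor signalling was blocked for a short time in zebrafish embryos, and gene expression was compared 1 h after heat shock between embryos carrying a heat-inducible dominant-negative Fgf receptor and wild-type embryos. The 8 arrays concerned are the 4 of Tg(hsp701;dnfgfr1-EGFP) embryos and the 4 of wild-type AB embryos dissected at that time, out of 72 arrays in 19 groups in the series. They were chosen by genotype, heat shock and time of dissection as the sample labels give them. All embryos were grown at 24 °C, were at the 12-somite stage, and were heat-shocked at 37 °C for 30 min before the posterior presomitic mesoderm (PSM) was cut out by hand. The wild-type embryos went through the same heat shock and carry no transgene. The same pair of genotypes dissected 30 min after heat shock (4 arrays each) and dkk1 and wnt8a embryos dissected at 1 h (4 arrays each) are used for comparison. The transgene is under a heat shock promoter, by its name, and is therefore not restricted to the PSM. The dkk1 and wnt8a embryos are transgenic without the dominant-negative receptor, but they express other signalling genes. No heat-shocked line with a mere control transgene was among these groups. An effect of the receptor and a fixed difference between the lines therefore cannot be told apart from the 1 h arrays alone.

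The posterior PSM is the unsegmented tissue of the tail that gives rise to somites. Fgf ligands made in the tail bud bind receptor tyrosine kinases and, through the adaptor Grb2, Ras and the Erk kinases, switch on target genes, among them inhibitors of the same pathway such as sprouty proteins and the Erk phosphatase Dusp6. Fgf signalling holds cells in an immature state, and the place where it fades along the PSM sets where the next somite boundary forms. A receptor without its kinase pairs with normal receptors and blocks them.

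Levels are given as log2 signal, the log2 of the deposited intensity plus 16, quantile normalized, so that the bottom of the scale is 4 and differences of dim genes are understated. A log2 difference is dnfgfr1 minus wild type, with its standard error from the fit, and a gene is called where its Benjamini-Hochberg adjusted p in limma is under 0.05. The labels name the arrays of a group biological replicates without saying how embryos were pooled, so p-values rest on spread between arrays. That spread was estimated within all groups of the series together, and not from the compared arrays alone. Where the compared arrays spread more widely than those of other groups, the p-values can therefore be too small. Where the compared arrays are tighter, the p-values can be too large. The number of arrays in each group limits the precision. Correlations between arrays were 0.971 to 0.984 within groups and 0.963 to 0.974 between the 1 h groups. The 8 defining markers of posterior PSM and tail bud included msgn1, cdx4, tbx16 and her1. Their means were 8.61 to 12.48 in dnfgfr1 arrays and 8.24 to 12.62 in wild-type arrays, and none was called in its brightest probe set. A second tbx16 probe set averaged 9.08 in dnfgfr1 and 10.37 in wild type, a difference that was not called (-1.30, adjusted p = 0.0725). The probe set of fgfr1a did not differ (0.01 ± 0.24, adjusted p = 0.995), but where it lies relative to the transgene is not given in the sources used here, so it does not check the labels. Of 10126 probe sets tested, 346 (3.42%) were called at 1 h, 184 higher (1.82%) and 162 lower (1.6%). Each gene was read from its brightest probe set, and 105 of 6503 genes were higher (1.61%) and 97 lower (1.49%). The 4 dnfgfr1 arrays lay wholly above the 4 wild-type arrays in 4.92% of genes and wholly below them in 5.11%. Genes that were both called and free of overlap made up 1.35% of all genes as rises and 1.21% as falls. Those with a placeholder symbol (si:, zgc:, LOC and the like) were not named. The 15 largest of the rest each way are the largest rises and falls described here.

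Among the genes that Fgf signalling is known to switch on, ier2a, spry4 and dusp6 fell and the others did not pass the test. Of 24 tested members of a list of Fgf feedback and output genes, 3 were lower and 0 were higher. The 3 made up 12.5% of the list, against 1.49% of all genes called lower and 3.11% called in either direction. The list was chosen with earlier results of these data known, so this share is no independent support. ier2a, an immediate early gene, led the falls. It was at 10.34, 9.75, 7.77 and 7.02 in dnfgfr1 arrays, against 11.64, 11.68, 11.40 and 11.50 in wild-type arrays. All 4 dnfgfr1 arrays lay below all 4 wild-type arrays, but they spread over more than 3 log2 units, with replicates 3 and 4 lowest. The difference was -2.83 ± 0.29 (7.13-fold lower, adjusted p = 3.37e-10). spry4, a sprouty inhibitor of receptor tyrosine kinase signalling, was at 9.21, 8.95, 7.88 and 7.78 in dnfgfr1 arrays, against 10.82, 11.06, 11.11 and 11.12 in wild-type arrays. The groups were far apart, and again replicates 3 and 4 were lowest. It fell by 2.57 ± 0.28 on the log2 scale (5.94-fold, adjusted p = 8.34e-10). dusp6 was at 10.84, 10.38, 9.71 and 8.70 in dnfgfr1 arrays, against 11.35, 11.30, 11.44 and 11.49 in wild-type arrays. Replicate 1 of dnfgfr1 lay close under the wild-type arrays and replicate 4 furthest from them. The difference was -1.49 ± 0.19 (2.8-fold lower, adjusted p = 9.95e-08), and a second, dimmer probe set of dusp6 was lower by a smaller amount (-0.61, adjusted p = 0.0416).

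Fitted on these 8 arrays alone, where the wide spread of the dnfgfr1 arrays enters undiluted, spry4 kept its call (adjusted p = 0.00411), while ier2a and dusp6 did not (adjusted p = 0.0902 and 0.115). No single array left out ended any of these 3 calls in the fit over all arrays.

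**Figure D1:**
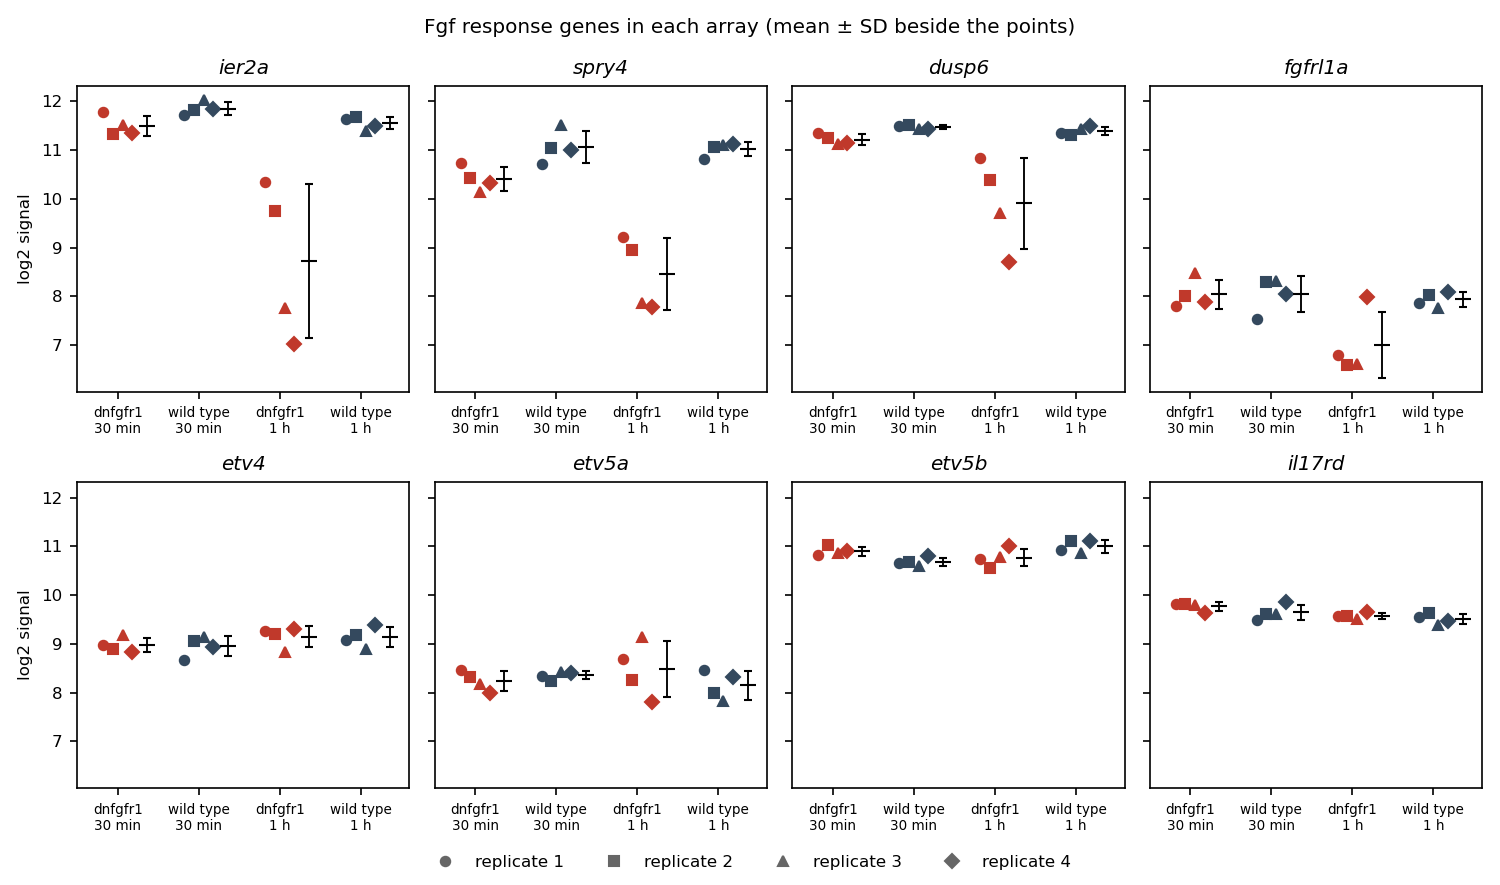
Log2 signal of 8 Fgf response genes in each array (points, shaped by replicate number) for dnfgfr1 and wild type at 30 min and at 1 h, with mean ± SD (n = 4) beside the points. ier2a, spry4 and dusp6 are lower in all 4 dnfgfr1 arrays at 1 h and spread widely there, fgfrl1a is lower in 3 of 4, and etv4, etv5a, etv5b and il17rd overlap.

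The ETS factors and the membrane inhibitor Sef, which like spry4 and dusp6 are textbook Fgf targets, overlapped with wild type and were not called. etv4 was at 9.26, 9.20, 8.84 and 9.30 in dnfgfr1 arrays, against 9.08, 9.19, 8.90 and 9.39 in wild-type arrays. The groups overlapped throughout, and the 95% confidence interval of the difference ran from -0.37 to 0.39. etv5b was at 10.74, 10.56, 10.78 and 11.00 in dnfgfr1 arrays, against 10.93, 11.12, 10.86 and 11.11 in wild-type arrays. The groups overlapped, and the interval of etv5b, -0.49 to 0.02, leaves out a fall as deep as that of dusp6. The interval of etv5a ran from -0.05 to 0.70, and that of il17rd, which encodes Sef, from -0.21 to 0.34. These 4 transcripts were bright, with group means of 8.16 and above, well clear of the bottom of the scale. ier5, related to ier2a, differed by -0.06 (interval -0.31 to 0.19).

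The remaining feedback genes gave no call. The 21 uncalled members lay between -0.66 (mych) and 0.63 (sp8b), 10 above 0 and 11 below, and 5 of them had means under 5.5, close to the bottom of the scale. The list median was -0.149, against -0.0142 over all genes. Among the myc genes, myca differed by -0.58 (adjusted p = 0.235) with non-overlapping arrays, at 5.74 to 6.08 in dnfgfr1 and 6.24 to 6.79 in wild type. The MAP kinase phosphatase gene dusp1 lay in the opposite direction by 0.46 (adjusted p = 0.061), with all dnfgfr1 arrays (9.17 to 9.41) above all wild-type arrays (8.69 to 8.97). fosab, an immediate early gene, was at 8.06, 7.80, 6.57 and 5.87 in dnfgfr1 arrays, against 8.30, 7.48, 6.96 and 7.09 in wild-type arrays. The groups overlapped (-0.38, adjusted p = 0.821), and replicates 3 and 4 of dnfgfr1 were the lowest there as well.

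Among ligands and receptors, 1 of 10 tested genes was called (10%, against 3.11% of all genes called in either direction), so the share rests on 1 gene. fgfrl1a, an Fgf receptor-like protein that lacks the kinase, was at 6.80, 6.59, 6.62 and 8.0 in dnfgfr1 arrays, against 7.88, 8.03, 7.76 and 8.08 in wild-type arrays. Replicate 4 of dnfgfr1 sat inside the wild-type range and the other 3 below it. The difference was -0.94 ± 0.24 (1.91-fold lower, adjusted p = 0.0109). The call ended without replicate 2 or replicate 3 of dnfgfr1 (-0.80 and -0.81, adjusted p = 0.0705 and 0.0658) and with these 8 arrays alone (adjusted p = 0.133). Of the ligands, fgf8a was at 8.37, 8.61, 9.51 and 8.13 in dnfgfr1 arrays, against 8.34, 6.32, 6.71 and 7.97 in wild-type arrays. The wild-type arrays were themselves far apart, and the difference of 1.32 ± 0.54 was not called (adjusted p = 0.207). fgf10a differed by -0.74 (adjusted p = 0.341), the receptor gene fgfr4 by 0.60 (adjusted p = 0.628), and the 9 uncalled genes of the list spanned these values from -0.74 to 1.32.

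Of 16 tested genes that carry the signal from receptor to nucleus, 1 was higher and 0 were lower. This share of 6.25%, against 3.11% of all genes called in either direction, also rests on 1 gene. The 15 uncalled members ranged from -0.35 (map2k1, a Mek gene) to 0.79 (mknk2b, a kinase downstream of Erk). The one call was grb2b, the adaptor that links receptors to Ras, at 8.39, 8.18, 8.77 and 8.19 in dnfgfr1 arrays, against 6.03, 5.78, 7.92 and 6.04 in wild-type arrays. Replicate 3 of wild type stood close to the dnfgfr1 arrays and far from the other wild-type arrays. The difference was 1.94 ± 0.41 (3.84-fold, adjusted p = 0.00195), and adjusted p was 0.0596 with these 8 arrays alone. A second probe set of grb2b differed by 0.68 and was not called (adjusted p = 0.128). In its brightest probe set grb2b averaged 7.69 in dkk1 and 7.62 in wnt8a at 1 h, between wild type (6.44) and dnfgfr1 (8.38). The difference between dnfgfr1 and dkk1 was not called (0.69, adjusted p = 0.207). At 30 min grb2b averaged 7.44 in wild type and 6.58 in dnfgfr1. mapk3, which encodes an Erk kinase, differed by 0.14 in its brightest probe set (adjusted p = 0.749), while a dimmer one was higher by 0.82 (adjusted p = 0.0108).

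**Figure D2:**
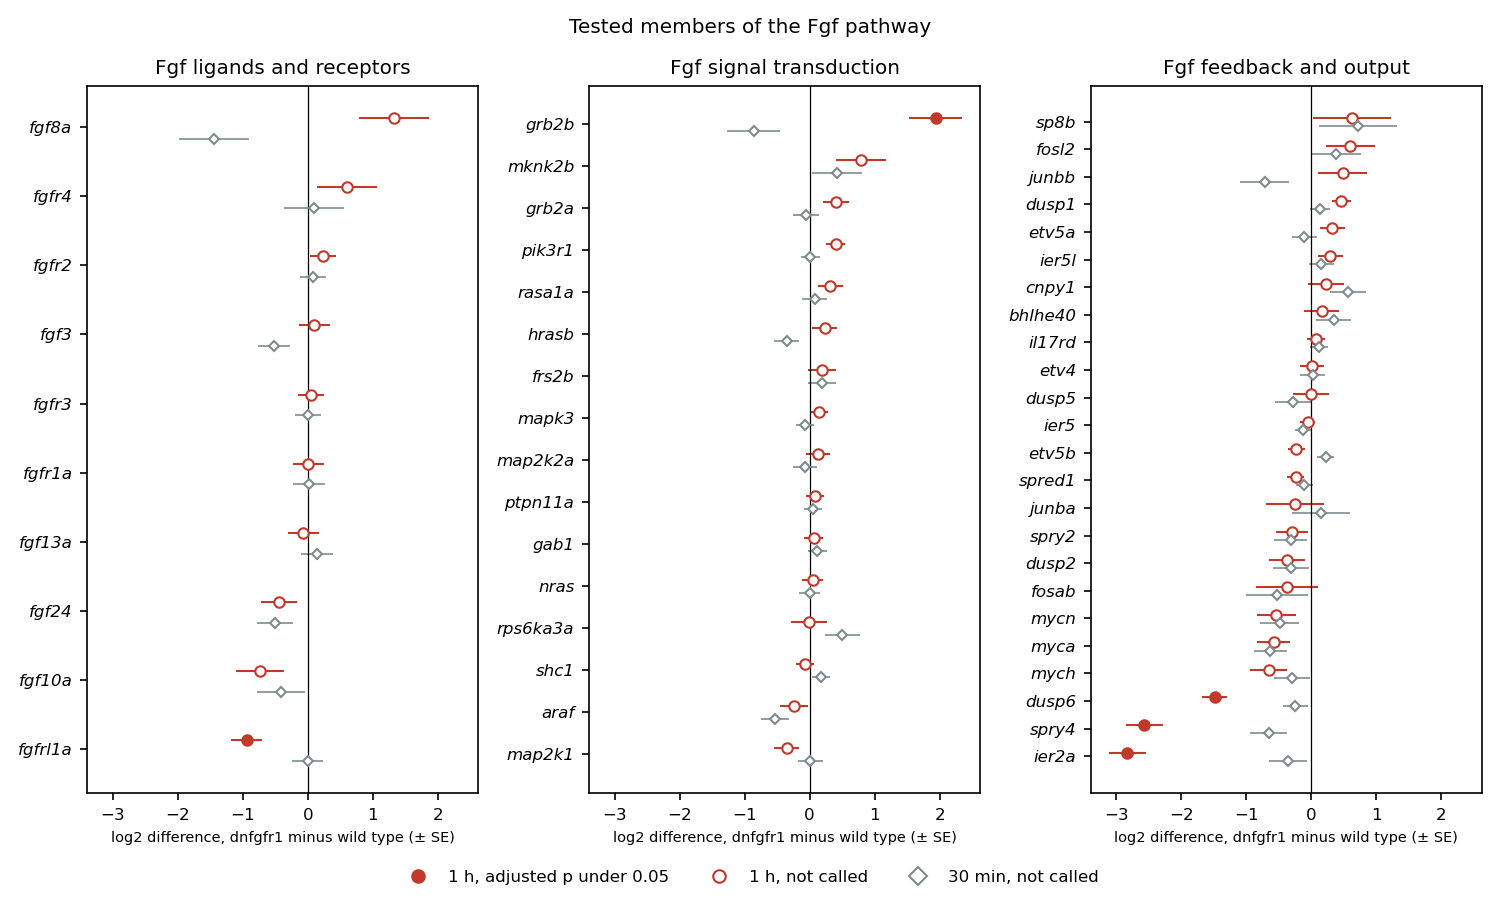
Log2 difference between dnfgfr1 and wild type (± SE of the fit) for the 50 tested members of the 3 Fgf lists at 1 h (circles, filled where called) and 30 min (diamonds, none called). Only ier2a, spry4, dusp6 and fgfrl1a are called lower at 1 h and only grb2b higher.

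Outside the Fgf pathway, the largest fall of a named gene was that of mespaa. This transcription factor gene of the anterior PSM acts where somite boundaries form. It was at 6.90, 6.40, 5.18 and 6.13 in dnfgfr1 arrays, against 8.64, 9.13, 8.68 and 8.65 in wild-type arrays. Each dnfgfr1 array lay well below each wild-type array, and replicate 3 was the lowest. The difference was -2.62 ± 0.29 (6.16-fold lower, adjusted p = 1.59e-09), and the call held in every alternative run. In dissected tissue, fewer cells that express a gene and less of its RNA per cell cannot be told apart. Of 25 tested PSM segmentation and somite genes, 2 were lower and 0 were higher (8%, against 3.11% of all genes called in either direction). The other was cdh2, the adhesion molecule N-cadherin, whose fall was small (-0.42 ± 0.10, adjusted p = 0.00544). The call on cdh2 ended without replicate 2 of dnfgfr1 (-0.30, adjusted p = 0.0829) and with these 8 arrays alone (adjusted p = 0.128), and a second cdh2 probe set differed by -0.10 (adjusted p = 0.931). tbx6, which is needed for mesp gene expression in zebrafish, was at 8.79, 8.82, 7.92 and 10.01 in dnfgfr1 arrays, against 9.43, 9.61, 8.93 and 9.98 in wild-type arrays, a difference that was not called (-0.60, adjusted p = 0.479).

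Other developmental regulators fell as well. socs3b, an inhibitor of cytokine signalling through Jak and Stat, was at 5.53, 5.59, 5.11 and 5.29 in dnfgfr1 arrays, against 6.86, 7.32, 6.81 and 7.12 in wild-type arrays. Both groups were tight, and the difference of -1.65 ± 0.27 (3.13-fold lower, adjusted p = 3.9e-05) held in every alternative run. atoh8, a basic helix-loop-helix transcription factor gene, was at 6.18, 5.82, 6.30 and 7.01 in dnfgfr1 arrays, against 8.09, 7.59, 7.32 and 8.23 in wild-type arrays. The arrays did not overlap (-1.48 ± 0.27, adjusted p = 0.000318). tsku, which encodes the secreted leucine-rich protein Tsukushi, was at 7.71, 6.97, 6.17 and 5.67 in dnfgfr1 arrays, against 8.41, 7.89, 8.03 and 7.82 in wild-type arrays. Its arrays were spread in the way of ier2a and dusp6, with replicate 4 lowest, and the difference was -1.41 ± 0.26 (adjusted p = 0.000311, and 0.111 with these 8 arrays alone).

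The myogenic factor gene myf5 was at 9.99, 10.22, 9.04 and 10.13 in dnfgfr1 arrays, against 10.59, 10.76, 10.59 and 10.64 in wild-type arrays. It was the 1 called gene of 22 tested muscle genes (4.55%, near the 3.11% of all genes), with a difference of -0.80 ± 0.22 (adjusted p = 0.025). Replicate 3 of dnfgfr1 was the lowest, and without it the difference was -0.53 (adjusted p = 0.244). The call also ended without replicate 2 or 4 of wild type (-0.76 and -0.80, adjusted p = 0.0838 and 0.0565). hoxc6b was the only one of 22 tested posterior Hox genes called (4.55%), a share also near that of all genes. It was at 7.41 to 8.36 in dnfgfr1 and 8.68 to 9.18 in wild type (-1.12 ± 0.25, adjusted p = 0.00354). znf703, a zinc finger repressor gene, was the only one of 25 tested tail bud progenitor genes called (4%, against 3.11% of all genes), and it differed by -0.77 ± 0.21 (adjusted p = 0.02). Without replicate 4 of dnfgfr1 its difference was -0.50 (adjusted p = 0.218), and the call was also lost without replicate 1 or 2 of wild type (adjusted p = 0.0696 and 0.0651).

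In the Bmp and Tgf-beta list, 3 of 37 tested genes were called (8.11%, against 3.11% of all genes), 1 higher and 2 lower. nog1, a secreted Bmp antagonist of the noggin family, was at 6.47, 6.16, 6.93 and 6.30 in dnfgfr1 arrays, against 5.37, 4.2, 5.27 and 5.27 in wild-type arrays. All dnfgfr1 arrays were above all wild-type arrays, of which replicate 2 stood far below the rest (1.44 ± 0.27, adjusted p = 0.000475). acvr1l, a type I Bmp receptor gene, was at 7.65 to 8.05 in dnfgfr1 and 8.39 to 8.67 in wild type (-0.72 ± 0.15, adjusted p = 0.00197). fstl1b, a follistatin-like secreted protein gene, was at 6.78, 6.76, 6.61 and 7.75 in dnfgfr1 arrays, against 8.22, 7.94, 8.11 and 8.46 in wild-type arrays. Replicate 4 of dnfgfr1 came closest to wild type (-1.20 ± 0.31, adjusted p = 0.013). Its call ended without replicate 3 of dnfgfr1 (adjusted p = 0.0618) and without replicate 4 of wild type (adjusted p = 0.0565).

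**Figure D3:**
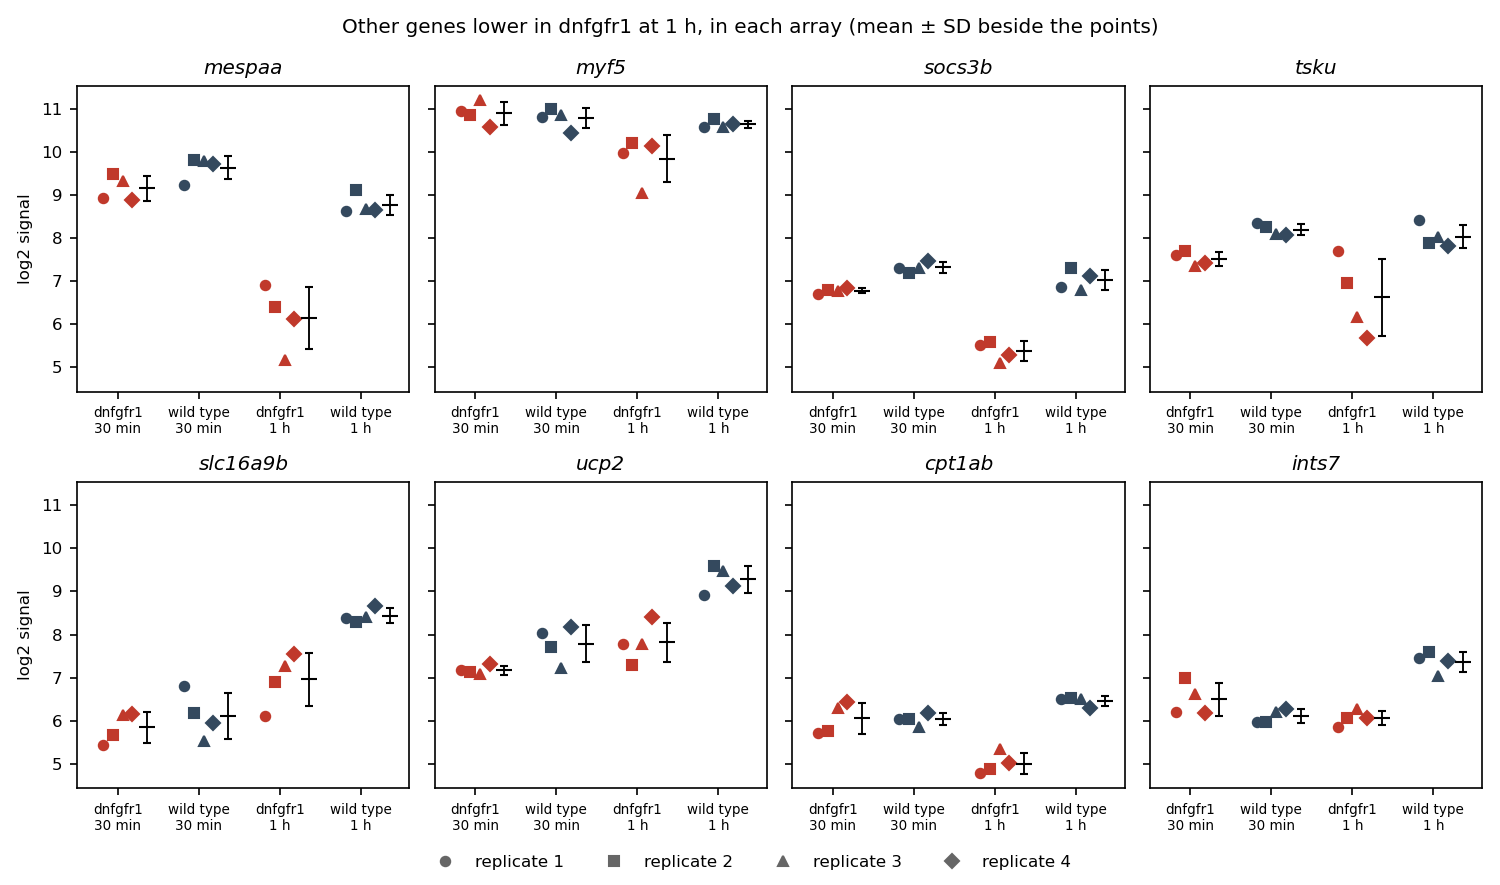
Log2 signal in each array (points, shaped by replicate number) of 8 other genes that fell at 1 h, for dnfgfr1 and wild type at 30 min and at 1 h, with mean ± SD (n = 4). In every panel the 4 dnfgfr1 arrays at 1 h lie below the 4 wild-type arrays at 1 h, and in the lower row slc16a9b, ucp2 and ints7 are higher in wild type at 1 h than at 30 min.

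slc16a9b, of the monocarboxylate transporter family, was at 6.11, 6.89, 7.27 and 7.55 in dnfgfr1 arrays, against 8.39, 8.28, 8.41 and 8.67 in wild-type arrays at 1 h (-1.48 ± 0.27, adjusted p = 0.000311). At 30 min it was at 5.44 to 6.14 in dnfgfr1 and 5.53 to 6.80 in wild type, below both 1 h groups on average. ucp2, a mitochondrial carrier, was at 7.29 to 8.41 in dnfgfr1 and 8.91 to 9.60 in wild type at 1 h (-1.46 ± 0.28, adjusted p = 0.000458), against 7.07 to 7.32 in dnfgfr1 and 7.21 to 8.18 in wild type at 30 min. In both genes each wild-type array at 1 h was above each wild-type array at 30 min. cpt1ab, which brings long-chain fatty acids into mitochondria, was at 4.78 to 5.33 in dnfgfr1 and 6.30 to 6.54 in wild type at 1 h (-1.46 ± 0.32, adjusted p = 0.00307). Here wild type was at 5.84 to 6.19 at 30 min, and dnfgfr1, at 5.71 to 6.44 then, was lower at 1 h.

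The other falls among the 15 largest were znf1156, zbtb16a, ints7, s100a1 and gstk1. znf1156, a zinc finger gene, was at 4.65, 4.5, 6.60 and 4.44 in dnfgfr1 arrays, against 7.5, 7.64, 6.62 and 7.31 in wild-type arrays. Replicate 3 of each group lay at about the same level, and the remaining arrays were far apart (-2.22 ± 0.43, adjusted p = 0.00066, and 0.0545 with these 8 arrays alone). zbtb16a, which encodes a transcriptional repressor, differed by -1.68 ± 0.37 (adjusted p = 0.00349), and ints7, of the Integrator complex that processes small nuclear RNAs, by -1.3 ± 0.26 (adjusted p = 0.000719). s100a1, a calcium-binding protein gene, and gstk1, a glutathione transferase gene, differed by -1.26 ± 0.27 and -1.22 ± 0.22 (adjusted p = 0.00215 and 0.000269).

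The 15 largest rises ran from 1.3 to 2.91. rnd3b was at 6.87, 7.38, 6.68 and 8.27 in dnfgfr1 arrays, against 4.35, 4.43, 4.19 and 4.58 in wild-type arrays. Wild type was near the bottom of the scale and no dnfgfr1 array came close to it (2.91 ± 0.64, 7.53-fold, adjusted p = 0.00297). hsf1, the regulator of heat shock genes, was at 6.95, 6.84, 6.73 and 6.85 in dnfgfr1 arrays, against 5.03, 4.71, 4.64 and 4.81 in wild-type arrays. Both groups were tight (2.05 ± 0.22, adjusted p = 3.37e-10). mpdu1b, which is needed for sugar transfer in glycosylation, was at 7.36, 6.12, 7.41 and 7.12 in dnfgfr1 arrays, against 4.64, 4.87, 4.35 and 4.32 in wild-type arrays (2.46 ± 0.29, adjusted p = 1.08e-08). fam117ab (1.87), the glycolytic enzyme gene gapdhs (1.49), the peroxiredoxin gene prdx1 (1.33), the forebrain homeobox gene six3a (1.31), frg1 (1.3) and the fatty acid elongation gene tecrb (1.33) were also higher, each with adjusted p from 3.45e-10 to 0.00236. A second prdx1 probe set was higher by 0.99 (adjusted p = 0.0173), and another gave no call (0.41, adjusted p = 0.474).

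Of the 15 largest rises, those of nog1, grb2b, egln3, gadd45ga, klhl41b, tecrb and ddx52 were not called at 30 min in their brightest probe set. Of these, only grb2b had a called change between the times (adjusted p from 0.147 to 0.979 for the others). At 30 min klhl41b differed by 1.42, ddx52 by 1.06 with non-overlapping arrays, gadd45ga by 0.47, nog1 by 0.11 and egln3 by 0.03. The 30 min difference of tecrb came close to a call (0.82, adjusted p = 0.054). Both other tecrb probe sets were called higher at 30 min (1.18 and 0.91, adjusted p = 0.000661 and 0.00893). egln3, a prolyl hydroxylase that marks hypoxia-inducible factor for degradation, was at 6.99, 5.03, 6.21 and 8.09 in dnfgfr1 arrays, against 5.02, 4.26, 4.79 and 4.98 in wild-type arrays. The dnfgfr1 arrays were widely spread and replicate 2 barely cleared wild type (1.82 ± 0.51, adjusted p = 0.0296). The call on egln3 was lost without replicate 1 or 4 of dnfgfr1 or replicate 2, 3 or 4 of wild type, with adjusted p up to 0.201. gadd45ga, a stress and growth arrest gene, was higher by 1.31 ± 0.34 (adjusted p = 0.0162), a call lost without replicate 1 of dnfgfr1 or replicate 2 or 3 of wild type (adjusted p = 0.084, 0.106 and 0.0855). klhl41b, a kelch protein gene of the sarcomere, was at 8.27 to 8.99 in dnfgfr1 and 5.17 to 6.70 in wild type (2.53 ± 0.58, adjusted p = 0.00485). The RNA helicase gene ddx52 differed by 1.46 ± 0.43 (adjusted p = 0.0379), and its call held without replicate 1 of dnfgfr1 but with no other array left out (adjusted p up to 0.0999).

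Set against the same genotypes at 30 min, more of the rises than of the falls were already called, though this difference between them was not tested. At 30 min 304 probe sets (3%) were called, and 104 genes were higher (1.6%) and 71 lower (1.09%), together 2.69% of genes. Of the 105 genes higher at 1 h, 32 were also called higher at 30 min (30.5% of the 1 h list and 30.8% of the 30 min list). Of the 97 genes lower at 1 h, 12 were also called lower at 30 min (12.4% and 16.9%). Of the 15 largest rises, 8 were called at 30 min and 14 had the same sign there, whereas 1 of the 15 largest falls, s100a1, was called at 30 min and 11 had the same sign. By arrays free of overlap in the same direction at 30 min, the counts were 10 of the 15 rises and 4 of the 15 falls. dusp6 and socs3b were among these falls. The share of all genes free of overlap at 30 min is not given here. The 1 h and 30 min comparisons have separate arrays on both sides. hsf1 differed by 2.06 at 30 min and 2.05 at 1 h, six3a by 1.29 and 1.31, and rnd3b by 3.59 and 2.91. A difference that is as large at 30 min as at 1 h may belong to the line or to an early effect of the transgene, and these cannot be told apart.

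**Figure D4:**
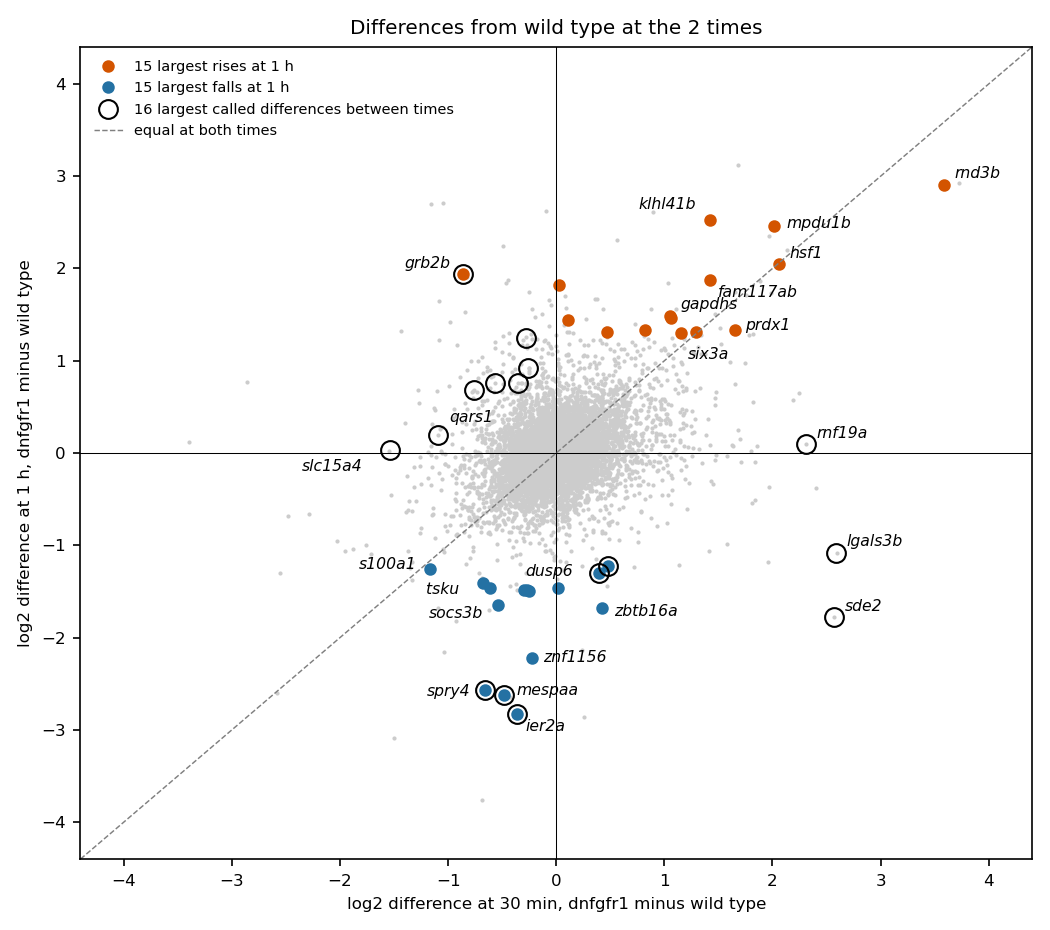
Log2 difference between dnfgfr1 and wild type at 30 min (x axis) and at 1 h (y axis) for all 10126 probe sets tested (grey) and for named genes. Several of the 15 largest rises lie near the dashed line of equal differences. ier2a, spry4, mespaa and dusp6 lie below 0 at 30 min, from -0.66 to -0.25, and far lower at 1 h.

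The change of the effect between the times was tested itself. It was called for 38 probe sets (0.375%) and 28 of 6503 genes (0.431%), 13 with a higher (0.2%) and 15 with a lower effect at 1 h (0.231%). All 3 Fgf output genes called at 1 h were among those with a lower effect. They were picked by their fall in the same 1 h arrays, so this is partly built in. The effect on ier2a was lower at 1 h than at 30 min (change -2.48 ± 0.41, adjusted p = 0.000401), as were those on spry4 (-1.91 ± 0.39, adjusted p = 0.00594) and dusp6 (-1.23 ± 0.27, adjusted p = 0.0118). At 30 min ier2a differed from wild type by -0.36, spry4 by -0.66 and dusp6 by -0.25, and none was called. The dusp6 arrays nevertheless did not overlap at 30 min, at 11.13 to 11.35 in dnfgfr1 and 11.43 to 11.52 in wild type. The changes between times of these 3 genes lost their call when only the 16 arrays of the 4 groups were fitted (adjusted p = 0.232 for ier2a, 0.0533 for spry4 and 0.312 for dusp6). The change for mespaa (-2.14, adjusted p = 0.00283) kept its call in all 27 alternatives run. Of fgfrl1a, socs3b, atoh8 and tsku, whose 30 min differences were -0.00, -0.54, -0.30 and -0.68, the change between times was not called (adjusted p = 0.326, 0.295, 0.246 and 0.656).

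Among other genes with a called change, sde2, slc15a4 and qars1 differed between times in wild type. Of the named genes, sde2 had the largest change (-4.35, adjusted p = 3.08e-06). It was at 7.61, 6.07, 9.35 and 8.64 in dnfgfr1 arrays, against 9.82, 9.64, 9.31 and 10.03 in wild-type arrays at 1 h. At 30 min it was at 9.30, 9.03, 9.28 and 8.53 in dnfgfr1 arrays, against 6.33, 6.49, 6.31 and 6.74 in wild-type arrays. Wild type was thus low at 30 min and high at 1 h, and a second probe set of sde2 showed neither difference (0.23 at 1 h and -0.37 at 30 min, neither called). slc15a4, a peptide and histidine transporter gene, was at 5.0 to 5.22 in dnfgfr1 and 6.37 to 7.03 in wild type at 30 min. At 1 h it was at 4.98 to 5.32 in dnfgfr1 and 4.87 to 5.35 in wild type. qars1, a glutamine tRNA ligase gene, was at 8.48 to 8.77 in dnfgfr1 and 9.60 to 9.80 in wild type at 30 min. Its dnfgfr1 and wild-type arrays overlapped at 1 h, at 8.22 to 9.35 and 8.0 to 8.72. The other probe sets of qars1 were not called at either time (-0.13 and -0.25 at 30 min, 0.15 and 0.03 at 1 h). prmt5, an arginine methyltransferase gene, differed by -0.76 at 30 min and by 0.68 at 1 h (change 1.44, adjusted p = 0.00522). dchs1b, a large cadherin gene, was at 6.35, 4.74, 5.65 and 6.21 in dnfgfr1 at 1 h and at 5.05 or less in each array of the other groups (change 1.54, adjusted p = 0.00594, and 0.0972 when only the 16 arrays were fitted).

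Embryos expressing dkk1, a secreted Wnt inhibitor, and embryos expressing wnt8a were dissected at the same time after the same heat shock. They were compared with the same wild-type arrays, so their levels are given side by side, and dnfgfr1 was tested against dkk1 directly. Between dnfgfr1 and dkk1, 2908 probe sets (28.7%) and 1920 of 6503 genes (29.5%) differed. mespaa averaged 6.15 ± 0.73 in dnfgfr1, 9.01 ± 0.44 in dkk1, 8.68 ± 0.18 in wnt8a and 8.78 ± 0.24 in wild type (SD, n = 4 each). Of these 4 groups only dnfgfr1 stood apart, and its difference from dkk1 was -2.86 (adjusted p = 2.61e-11). ier2a averaged 8.72 ± 1.58 in dnfgfr1, 11.78 ± 0.04 in dkk1, 11.46 ± 0.16 in wnt8a and 11.56 ± 0.13 in wild type. dusp6 averaged 9.91 ± 0.93 in dnfgfr1, 11.34 ± 0.12 in dkk1, 11.41 ± 0.10 in wnt8a and 11.39 ± 0.09 in wild type. Both were lower in dnfgfr1 than in dkk1 (-3.06 and -1.43, adjusted p = 7.58e-12 and 3.87e-08). The same held for socs3b (-2.48), atoh8 (-1.94), tsku (-1.69), znf1156 (-2.75) and myf5 (-1.33), with adjusted p from 1.42e-10 to 4.71e-06. The falls from wild type in acvr1l, cdh2, hoxc6b, fstl1b and fgfrl1a came with no call against dkk1 (-0.09, -0.03, -0.36, -0.60 and -0.57, adjusted p from 0.0637 to 0.864).

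spry4 was graded across the lines, at 8.45 ± 0.73 in dnfgfr1, 9.52 ± 0.12 in dkk1, 9.94 ± 0.25 in wnt8a and 11.03 ± 0.14 in wild type. The dnfgfr1 arrays were still below dkk1 (-1.06 ± 0.28, adjusted p = 0.00255), but both other lines also lay between dnfgfr1 and wild type. znf703 was higher in dnfgfr1 than in dkk1 by 1.36 (adjusted p = 8.2e-07), while it was lower than in wild type.

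Of the 15 largest falls, 10 were also called lower in dnfgfr1 than in dkk1, and the others were ints7, zbtb16a, ucp2, gstk1 and s100a1. Over all 10126 probe sets, 1471 were called lower in that comparison. The falls were picked by low values in the same dnfgfr1 arrays, so the count of 10 is partly built in and is no independent support. ints7 averaged 6.06 ± 0.17 in dnfgfr1, 6.07 ± 0.50 in dkk1, 6.05 ± 0.30 in wnt8a and 7.37 ± 0.24 in wild type, with no call between dnfgfr1 and dkk1 (-0.01 ± 0.26, adjusted p = 0.99). zbtb16a averaged 6.40 ± 0.82 in dnfgfr1, 6.19 ± 0.12 in dkk1, 6.49 ± 0.13 in wnt8a and 8.09 ± 0.25 in wild type. ucp2 and gstk1 also gave no call between dnfgfr1 and dkk1 (-0.29 ± 0.28 and -0.22 ± 0.22, adjusted p = 0.474 and 0.513), and neither did zbtb16a (0.21 ± 0.37, adjusted p = 0.713) or s100a1 (-0.53 ± 0.27, adjusted p = 0.137). Of the 15 largest rises, 9 were also called higher in dnfgfr1 than in dkk1, as were 1437 of 10126 probe sets, and this count too is partly built in. The rises of rnd3b, grb2b, ddx52, prdx1, gadd45ga and frg1 gave no call between dnfgfr1 and dkk1 (adjusted p from 0.124 to 0.974). Among them, rnd3b averaged 7.30 ± 0.71 in dnfgfr1, 8.51 ± 0.30 in dkk1, 8.31 ± 0.37 in wnt8a, 4.39 ± 0.16 in wild type and 4.62 ± 0.19 in the libraries labelled DeltaTcf, which are otherwise left aside. Of the 4 groups compared, hsf1 was high in dnfgfr1 alone, at 6.84 ± 0.09, with 4.91 ± 0.27 in dkk1, 4.77 ± 0.46 in wnt8a and 4.80 ± 0.17 in wild type, and six3a and fam117ab were also highest in dnfgfr1 (1.94 and 1.69 above dkk1, adjusted p = 3.4e-08 and 1.43e-09).

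**Figure D5:**
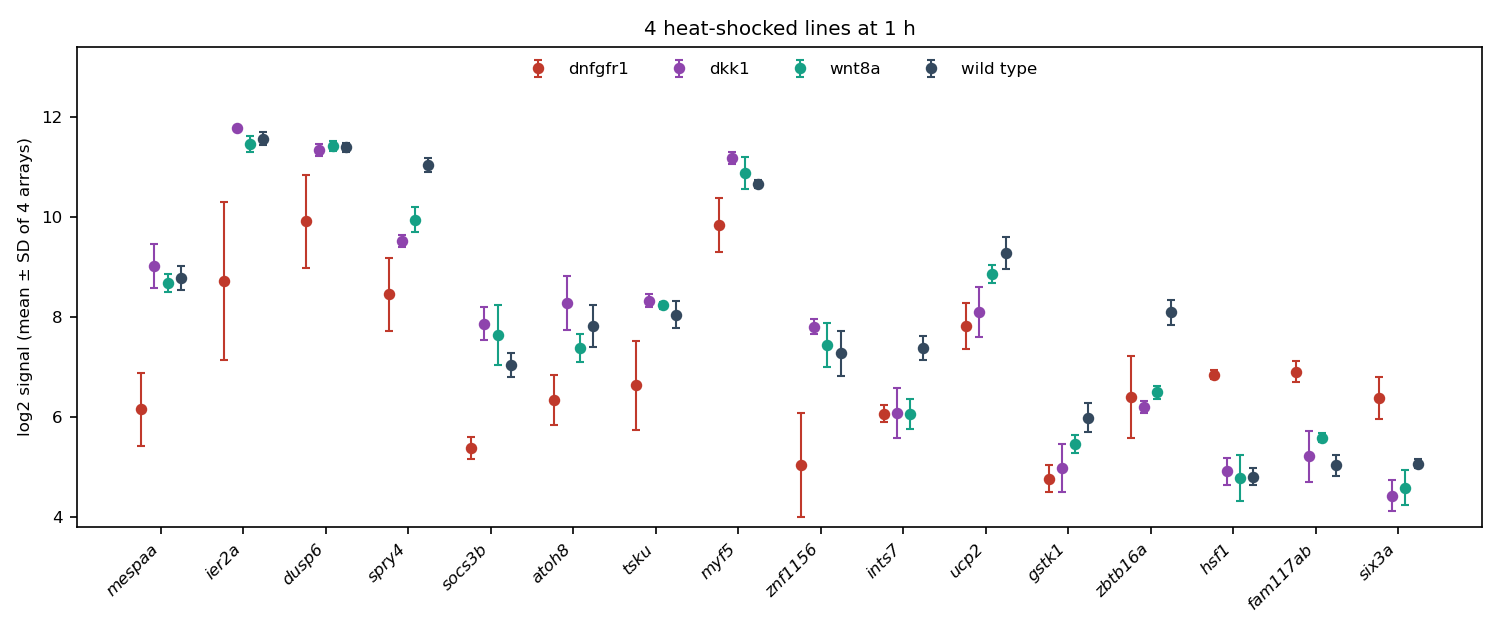
Mean log2 signal ± SD (n = 4 arrays) of 16 genes at 1 h in dnfgfr1, dkk1, wnt8a and wild-type embryos. mespaa, ier2a, dusp6, socs3b, atoh8, tsku, myf5 and znf1156 are lowest in dnfgfr1 alone, ints7 and zbtb16a are highest in wild type alone, and hsf1, fam117ab and six3a are highest in dnfgfr1 alone.

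No gene was called at 1 h in the segmentation clock and Notch list (30 tested, median 0.256), the Wnt list (33), the retinoic acid list (26), the hedgehog list (10), the left-right asymmetry and cilia list (8), the p53 and cell death list (21) or the cell cycle list (50, median -0.12). The clock genes her1, her7 and dlc overlapped with wild type, with differences of 0.38, 0.37 and 0.30 (adjusted p from 0.801 to 0.913) and standard errors of 0.45 to 0.63. In the clock and Notch list the smallest p-values belonged to jag1a (0.97, adjusted p = 0.118), hey2 (0.75, adjusted p = 0.216) and her3 (1.87, adjusted p = 0.256). In the Wnt list they belonged to dvl2 (-0.58, adjusted p = 0.082), wnt5b (-0.57, adjusted p = 0.169) and dkk3b (-0.79, adjusted p = 0.18). At 30 min, however, 2 of the 33 Wnt genes were called lower, against 1.09% of all genes. They were axin2 (-1.38, adjusted p = 0.000723) and wnt5b (-0.85, adjusted p = 0.0189). axin2 differed by -0.25 at 1 h (adjusted p = 0.764). The change between times was not called for axin2 or wnt5b (adjusted p = 0.257 and 0.966).

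The heat shock gene hsp70.3 was at 12.89, 12.61, 11.53 and 11.20 in dnfgfr1 arrays, against 11.92, 11.80, 11.97 and 11.44 in wild-type arrays. The groups overlapped (0.27 ± 0.42, adjusted p = 0.863), but the dnfgfr1 arrays were wider apart, with replicates 3 and 4 below replicates 1 and 2, as for ier2a, spry4 and dusp6. Whether the depth of the loss of those genes and the level of hsp70.3 are related was not tested. Of 49 tested heat shock and chaperone genes, 2 were higher (hsf1, and the co-chaperone gene dnaja1 by 0.53) and 1 was lower (the Hsp90 co-chaperone gene fkbp4 by -0.35), 6.12% against 3.11% of all genes. Differences in this list ran from -0.46 to 2.63, and the gene with the highest, above that of hsf1, was not called. The calls on dnaja1 and fkbp4 were each lost with 6 of the 8 arrays left out in turn (adjusted p up to 0.149 and 0.109). In the stress and cytokine list 2 of 55 were higher (gadd45ga, and atf5b by 0.67) and socs3b was lower (5.45%). Further called genes were the rises of gapdhs and aldoab (1.24) among 49 genes of glycolysis and oxidative phosphorylation (4.08%), the rise of sf3b2 (0.69) among 59 splicing factors (1.69%) and the fall of the histone deacetylase gene hdac8 (-0.46) among 39 chromatin regulators (2.56%). Of these, atf5b and aldoab lost their call with 6 of 8 arrays left out in turn, sf3b2 with 4 and hdac8 with 3 of 8 (adjusted p up to 0.315, 0.179, 0.151 and 0.0581).

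Markers of tissues beside the PSM gave no call at 1 h, in the notochord (10 tested), neural (31), epidermis (31), blood and endothelium (18), pronephros (8), germ cell (5) and yolk (10) lists. The neural list nevertheless lay above 0 in 27 of its 31 genes, with a median of 0.689 against -0.0142 over all genes. Its summed signal was 4455, 7677, 13228 and 8777 in dnfgfr1 arrays, against 5941, 2458, 2155 and 8302 in wild-type arrays. The groups overlapped, with replicates 2 and 3 of wild type lowest. elavl3, a neuronal RNA-binding protein gene, was at 5.73, 7.55, 7.99 and 8.17 in dnfgfr1 arrays, against 7.35, 4.90, 4.55 and 7.72 in wild-type arrays. Wild type fell into a high and a low pair, and the difference of 1.23 ± 0.83 was not called (adjusted p = 0.555). The same wild-type replicates, 2 and 3, were low for her3, sox3 and fgf8a. What part the neural content of the dissected pieces has in the differences of fgf8a and her3 was not tested.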

How the data were processed

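RNA of hand-dissected posterior PSM was labelled and hybridised to 1-colour Affymetrix zebrafish arrays. The deposited values are linear intensities from MAS5, per the submitters' processing notes, in a version not given in the sources used here, and every array's 2% trimmed mean is 150. Of 15617 probe sets, 115 controls were left out. The signal log2(intensity + 16) was quantile normalized over all 72 arrays, and 10126 probe sets above their array's median on at least 3 arrays were tested. Gene symbols came from the platform annotation, updated through a RefSeq gene table used for names only. Of the 15502 probe sets analysed, 10795 had 1 symbol, 135 had several and 4572 had none, and only those with 1 symbol were named.

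limma 3.58.1 (R 4.3.3, statmod 1.5.0) fitted the means of all 19 groups, with trended, robust moderation and Benjamini-Hochberg adjustment over all tested probe sets. All adjusted p-values are limma's and two-sided, and 95% intervals are from the same fit. The contrasts were dnfgfr1 against wild type at each time, the change between the times, and dnfgfr1 against dkk1 at 1 h. The scripts were tested on simulated data. Genes were named by rule: the members of the 3 Fgf lists, the 15 largest non-overlapping called changes each way, the called members of the other lists (or up to 3 with the smallest p), and the 8 largest called changes between times each way. Genes with placeholder symbols were passed over in picking the largest changes. Members, lists and rules were chosen with earlier results of these data known. Alternatives were other scalings, pseudocounts of 64 and 1, testing without the filter or with a stricter one, fits on fewer arrays, the replicate number as a block, array weights, plain moderation, and each array left out in turn. Replicate numbers were not taken to pair arrays, since same-numbered arrays did not deviate together. Apart from the mean given for rnd3b, arrays labelled DeltaTcf were left out of the comparisons, because their label is in doubt. In them dkk1b, the dkk1 line's gene, averaged 12.8 ± 0.1, with 13.1 ± 0.1 in dkk1 (log2 signal, SD, n = 4 each) and 5.44 ± 0.51 in wild type. Their rnd3b mean (4.62), however, was near that of wild type (4.39) and far from that of dkk1 (8.51). Arrays labelled DeltaTcf still entered the shared estimate of spread. No scan date or batch is given in the sources used here.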

Additional observations from a re-analysis of the deposited data

Results flagged for a closer look

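In each group of 4 arrays at 1 h, the array furthest out was set against the other 3 for the 162 named genes, using Dixon's ratio. A far array was found in 22 of 324 groups (6.79%), where chance gives about 1 in 20 groups. Among Fgf genes these were replicate 4 of dnfgfr1 for fgfrl1a (8.0), replicate 3 of wild type for grb2b (7.92), replicate 1 of wild type for ier5l (8.54) and replicate 2 of dnfgfr1 for araf (7.16) and map2k2a (7.04). Among the largest rises they were replicate 2 of wild type for nog1 (4.2) and replicate 3 of wild type for six3a (4.92). Among the largest falls they were replicate 3 of dnfgfr1 for znf1156 (6.60), replicate 4 of dnfgfr1 for gstk1 (4.35), replicate 2 of wild type for mespaa (9.13) and replicate 4 of wild type for cpt1ab (6.30). In other called genes they were replicate 4 of dnfgfr1 for fstl1b (7.75) and hdac8 (9.12), and replicate 3 of wild type for dchs1b (4.39). In genes not called at 1 h they were replicate 3 of dnfgfr1 for hand2 (7.60), the notochord gene ntd5 (8.5) and myod1 (5.97), replicate 1 of dnfgfr1 for krt5 (9.36), replicate 4 of wild type for tbx16 (10.97) and replicate 3 of wild type for s100a10b (5.35). rnf19a had a low array in both groups, replicate 2 of dnfgfr1 (4.51) and replicate 3 of wild type (4.68).

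For 17 named genes the difference between dnfgfr1 and wild type itself changed between 30 min and 1 h, as called in limma. The effect was lower at 1 h for sde2 (-4.35), the galectin gene lgals3b (-3.68), ier2a (-2.48), the ubiquitin ligase gene rnf19a (-2.21), mespaa (-2.14), spry4 (-1.91), gstk1 (-1.71), ints7 (-1.7) and dusp6 (-1.23). It was higher at 1 h for grb2b (2.8), slc15a4 (1.57), dchs1b (1.54), prmt5 (1.44), the vesicle fusion gene vamp4 (1.33), qars1 (1.29), the proteasome gene psmb5 (1.18) and the phosphatase gene ptpn2a (1.11). These calls were kept in all alternatives run for mespaa, ints7, gstk1, lgals3b, prmt5 and sde2. The call on rnf19a was kept in 6 of 26 alternatives, ptpn2a in 12 of 27, vamp4 in 20 of 27, dchs1b in 22 of 26, qars1 in 23 of 27, ier2a, spry4, dusp6 and grb2b in 24 of 27, slc15a4 in 25 of 26 and psmb5 in 26 of 27. When only the 16 arrays of both genotypes and times were fitted, grb2b had an adjusted p of 0.153 in limma, vamp4 0.0972 and qars1 0.0622. The call on qars1 also ended without replicate 2 of dnfgfr1 at 1 h, that on psmb5 without replicate 4 of wild type at 1 h, and that on vamp4 without replicate 1 or 4 of wild type at 1 h or replicate 2 or 4 of dnfgfr1 at 30 min.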

How the results depend on the processing

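The 346 probe sets called at 1 h became 595 with array quality weights and 229 when the 8 arrays were fitted alone. The same weights gave 861 at 30 min, against 304, and 141 for the change between times, against 38. Fitting only the 30 min arrays of both genotypes gave 450 calls at 30 min. Fitted in this way, 30 min had more calls than 1 h, the reverse of the fit over all arrays. Leaving out 1 array gave 233 to 301 calls at 1 h, lowest without replicate 2 of wild type, 201 to 274 at 30 min, 27 to 42 for the change and 2407 to 2637 against dkk1. With the replicate number as a block, which the labels do not say pairs arrays (correlations of -0.111 to 0.0342 between same-numbered arrays at 1 h, with 0 of 4 numbers closest to their own), the counts were 139 at 1 h, 317 at 30 min, 26 for the change and 2074 against dkk1. The remaining counts moved by less than 1.5 times. Of 49 named genes called at 1 h, 17 kept their call in every alternative run, among them spry4, mespaa, socs3b, atoh8, nog1 and hsf1. Calls were lost for 20 genes with the 8 arrays alone, 25 with the block and 18 with 1 array left out. Of 113 named genes not called, 12 were called in at least 1 alternative, and no called difference turned its sign. The cause of these shifts was not tested. Genes near the bottom of the scale have compressed differences.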
